A study of Mus musculus with 20 samples.

Results

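Neutrophils carry their antimicrobial proteases and peptides in granules, and these are released when a granule docks at the cell membrane and fuses with it. The small GTPase Rab27a sits on the granule and recruits effector proteins, Sytl1 and Myrip among them, which tie the granule to the membrane or to the actin cytoskeleton. Unc13d (Munc13-4) then primes the granule, Stxbp2 (Munc18-2) holds the syntaxin in place, and SNARE proteins on both membranes (Stx11 and Snap23 on the target side, Vamp8 on the granule) zip together to drive fusion. In humans, loss of RAB27A causes Griscelli syndrome, and loss of UNC13D, STX11 or STXBP2 causes familial hemophagocytic lymphohistiocytosis. Synaptotagmins are membrane proteins of the same machinery, many of which sense calcium.

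The expression of 10 genes of this machinery was examined in neutrophils from different organs of mice with pancreatic ductal adenocarcinoma (PDAC). They were Rab27a, its effectors Sytl1 and Myrip, the priming factor Unc13d, the syntaxin-binding Stxbp2, the SNAREs Stx11, Snap23 and Vamp8, and the synaptotagmins Syt15 and Syt5. They were chosen by symbol, with earlier results of these data known. Shares of all genes given beside counts of these 10 are therefore a description and no test of an excess. All 10 were found among the 51912 genes of the count table and among the 28762 that were counted in 1 library or more. Myrip and Syt15 are also genes that the study itself named as particular to brain neutrophils in these same samples, so their values here are not independent evidence of that pattern.

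C57BL/6 mice of both sexes, 7 to 12 weeks old, received KPC cells, a mouse pancreatic tumor line, or, as sham controls, PBS. At 10 d.p.i. live single cells with high CD11b and high Ly6G were sorted from blood, brain, liver and tumor of the tumor mice and from blood of sham mice, after perfusion with PBS in the case of the organs. Each of the 5 groups held 4 RNA-seq libraries, numbered 1 to 4 in both blood groups and the liver, 2 to 5 in the brain, and 1, 2, 3 and 5 in the tumor. Blood, brain, liver and tumor could be taken from the same mouse, but the labels do not tie libraries to mice. The p-values below measure the spread between these libraries. The tumor line is a single transplanted model, and the sort rests on surface proteins.

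The 10 genes lie at 9:73044854-73097629 (Rab27a, + strand), 4:133253090-133263113 (Sytl1, - strand), 9:120301513-120474841 (Myrip, + strand), 11:116062095-116077961 (Unc13d, - strand), 8:3630955-3643644 (Stxbp2, + strand), 10:12938209-12964298 (Stx11, - strand), 2:120567671-120601255 (Snap23, + strand), 6:72385223-72390703 (Vamp8, - strand), 14:34219595-34230420 (Syt15, + strand) and 7:4539765-4547541 (Syt5, - strand) of mm10, as GENCODE M21 annotates them. Rab27a shares 149 exonic bases, 3.84% of its exons, with the pseudogene Gm27186 on the same strand, and the sources do not say how reads of that stretch were counted. None of the other 9 genes shared exonic bases with another annotated gene.

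Sequence before the RefSeq start of 3 of these genes is shown, since they stand for the 2 patterns in the data: Myrip was counted almost only in brain libraries, whereas Rab27a and Stx11 were abundant everywhere and low in the tumor. The RefSeq starts of Myrip, Syt15, Stx11, Stxbp2, Sytl1 and Vamp8 lie inside the genes as GENCODE M21 draws them. Windows of 250 bases before these starts therefore reach into annotated exons, and only bases outside every exon are printed. This left all 250 bases for Rab27a, 211 for Stx11 and 113 for Myrip, whose stretch lies in an intron of a longer GENCODE transcript. Rab27a has 2 RefSeq starts, and the window of the upstream start is shown. The other start lies inside the gene, and its window, free of exonic bases, is not shown. The window of Syt15 is exonic in GENCODE throughout, and none is shown. The sequences are from RefSeq on GRCm38.p6, the build also called mm10, at chr9:120303823-120303935 (Myrip, + strand), chr9:73044560-73044809 (Rab27a, + strand) and chr10:12964299-12964509 (Stx11, - strand), each written 5′ to 3′ on the strand of its gene. Capitals mark matches to 4 motifs searched on both strands: AGGAAG, a core bound by ETS factors such as PU.1, TTGCNNAA, a core bound by C/EBP factors, the E-box CACGTG and the GC box GGGCGG.
Myrip: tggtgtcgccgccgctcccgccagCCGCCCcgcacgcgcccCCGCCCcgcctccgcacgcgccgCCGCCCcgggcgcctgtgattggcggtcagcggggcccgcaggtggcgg
Rab27a: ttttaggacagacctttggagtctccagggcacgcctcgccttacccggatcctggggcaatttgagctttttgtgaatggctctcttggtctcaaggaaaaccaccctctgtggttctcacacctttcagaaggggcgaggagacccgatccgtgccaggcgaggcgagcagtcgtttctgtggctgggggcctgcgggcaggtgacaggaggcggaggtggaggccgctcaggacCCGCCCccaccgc
Stx11: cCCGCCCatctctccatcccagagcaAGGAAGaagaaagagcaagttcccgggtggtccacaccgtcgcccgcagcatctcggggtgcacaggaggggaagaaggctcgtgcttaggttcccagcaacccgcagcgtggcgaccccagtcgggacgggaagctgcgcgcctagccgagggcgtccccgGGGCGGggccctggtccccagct

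The Myrip stretch held 3 GC boxes and a GC content of 85.0%, and no match to the other 3 motifs. The Rab27a stretch held a GC box 13 bases before the RefSeq start. The Stx11 stretch held the ETS core 224 bases before the RefSeq start and GC boxes 249 and 62 bases before it. No match overlapped another. Of 32851 RefSeq windows of 250 bases before a start, 29.5% held the ETS core, 9.56% the C/EBP core, 6.02% the E-box and 32.7% the GC box. Among the 8 genes with a window in the table (9 windows, of which Rab27a has 2), the ETS core stood in Stx11, Stxbp2 and Syt15, the C/EBP core in Vamp8 alone, the E-box in Rab27a and Stxbp2, and the GC box in Myrip, Rab27a, Stx11 and Syt15. The E-box of Rab27a lies in the window that is not shown. These matches and shares are of whole windows, exonic bases included. The matches of Stxbp2 and Syt15 all lie in annotated exons. A match is a description of letters in the window and no evidence of binding.

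Libraries held 47388245 to 54472378 counts. Ly6g, which encodes the sorted surface protein, was at 117 to 316 CPM (counts scaled to library size, here after TMM scaling) in tumor-mouse blood but at 1.43 to 13.2 CPM in the tumor. The summed level of 20 neutrophil markers was 36529.5 to 48699 CPM in sham blood and 58429 to 78835 CPM in tumor-mouse blood. It was 80919.5 to 140831 CPM in brain, 39512 to 62241 CPM in liver and 7035 to 20703 CPM in tumor libraries, and none of the 20 was at 0 in any group. In the tumor, the 15 markers of tumor epithelium summed to 1178 to 4102 CPM, compared with at most 438 CPM in any other library. The 15 macrophage and monocyte markers summed to 15455 to 20822 CPM in the tumor, 13931 to 17129 CPM in the brain and 14249 to 19124 CPM in the liver, compared with 4291 to 5297 CPM in tumor-mouse blood and 6345 to 11982 CPM in sham blood, and none of them was at 0 in any group. These are bulk libraries, in which fewer neutrophils and less RNA of a gene per neutrophil cannot be told apart.

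Expression of the 10 genes covered a wide range. Scaled to exon length, mean levels in tumor-mouse blood were 187 CPM per kb for Snap23, 123 for Vamp8, 101 for Stx11, 97.4 for Stxbp2, 71.0 for Rab27a and 22.7 for Unc13d. Sytl1 followed at 1.83 CPM per kb and Syt5 at 0.022, while Myrip and Syt15 had no count in this group. The core machinery was thus measured at high counts in every library, and the effectors and synaptotagmins at low counts.

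**Figure D1:**
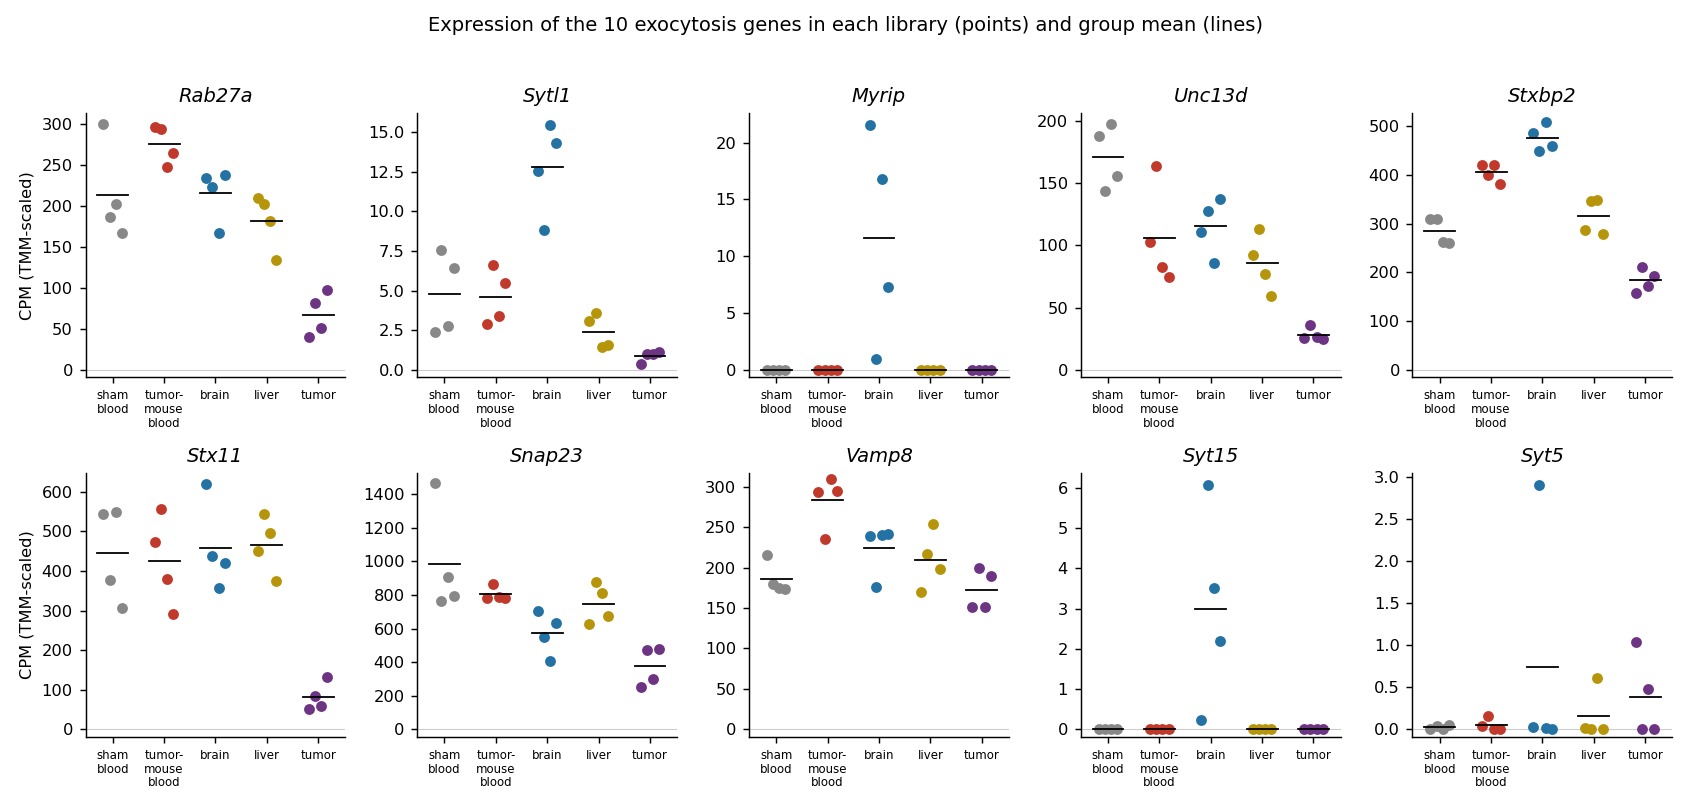
Level of each of the 10 genes in CPM after TMM scaling (y axis, linear, each panel on its own range from 0), for the 5 groups on the x axis; points are the 4 libraries of a group and black lines the group mean. Stx11 lies between 52.1 and 133 CPM in the tumor and at 293 CPM or more in all other libraries, and Myrip and Syt15 lie at or near 0 outside the brain.

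Rab27a, the GTPase that marks the granule, was measured at 300, 186, 202 and 167 CPM in sham blood 1 to 4, at 296, 294, 247 and 264 CPM in tumor-mouse blood 1 to 4, at 233, 222, 167 and 238 CPM in brain 2 to 5, at 210, 202, 182 and 134 CPM in liver 1 to 4, and at 39.9, 81.7, 50.6 and 97.3 CPM in tumor 1, 2, 3 and 5. Every tumor library was below every other library. Rab27a fell in the tumor compared to tumor-mouse blood (log2 fold change -2.03, SE 0.25, edgeR adjusted p = 2.57e-06) and compared to the liver (-1.43, SE 0.24, adjusted p = 0.000363), and was higher in the brain, 3.19-fold the tumor level (1.67, SE 0.25, adjusted p = 4.09e-05). The order of the group means was tumor-mouse blood, brain, sham blood, liver and tumor. The brain libraries were all below those of tumor-mouse blood, but that difference did not pass the test (-0.36, SE 0.24, adjusted p = 0.404), nor did that between liver and tumor-mouse blood (-0.60, SE 0.24, adjusted p = 0.168).

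Sytl1 (Slp1, also called JFC1), a Rab27a effector that takes part in granule release in neutrophils, was the effector found in every library. Its level was 2.40, 7.54, 2.75 and 6.44 CPM in sham blood, 2.90, 6.62, 3.42 and 5.48 CPM in tumor-mouse blood, 12.5, 8.84, 15.4 and 14.3 CPM in the brain, 3.10, 3.57, 1.41 and 1.54 CPM in the liver, and 0.342, 0.991, 0.998 and 1.10 CPM in the tumor. The brain libraries were above all 16 others and the tumor libraries below all others. Sytl1 was higher in the brain than in the liver (log2 fold change 2.41, SE 0.55, edgeR adjusted p = 0.0175) and than in the tumor (3.90, SE 0.58, adjusted p = 5.06e-05), and fell in the tumor compared to tumor-mouse blood (-2.42, SE 0.55, adjusted p = 0.00207). The 2.78-fold difference between brain and tumor-mouse blood did not pass (1.47, SE 0.53, adjusted p = 0.116) in edgeR, but passed in DESeq2 (adjusted p = 0.00733) and in limma on the deposited rlog values (adjusted p = 0.0288). The call against the liver ended when brain 4 (adjusted p = 0.0515), liver 3 (0.0689) or liver 4 (0.0718) was left out, with lane as a term (0.0538) or with the replicate block (0.0529).

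Myrip, an effector that links Rab27a-bearing organelles to myosin motors, was counted in the brain and almost nowhere else. Its level was 21.5, 0.909, 16.8 and 7.30 CPM in brain 2 to 5, from 960, 47, 792 and 338 reads. The other 16 libraries held 1 read in all, in sham blood 3 (0.0195 CPM). Over groups, with the 0 counts of a reference group set to a floor of 3 reads per group, Myrip was at least 702-fold higher in the brain than in tumor-mouse blood, at least 709-fold higher than in the liver and at least 1007-fold higher than in the tumor (edgeR adjusted p = 0.00114, 0.00197 and 0.000196). Without brain 2, the library with the most Myrip, the bounds were 505-, 511- and 726-fold. Brain 3 held the least of the brain libraries, and the 3 calls held when any single library was left out. With lane as a term, the call against tumor-mouse blood ended (adjusted p = 0.0648).

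Unc13d (Munc13-4), which primes granules and tethers them to the membrane, was measured at 188, 144, 198 and 155 CPM in sham blood, 103, 164, 82.7 and 74.6 CPM in tumor-mouse blood, 111, 127, 85.8 and 137 CPM in the brain, 92.3, 113, 77.3 and 59.0 CPM in the liver, and 25.6, 35.7, 26.7 and 24.9 CPM in the tumor. The tumor libraries were below all 16 others, and the remaining groups overlapped apart from sham blood against brain and liver. Unc13d fell in the tumor compared to tumor-mouse blood (log2 fold change -1.91, SE 0.25, edgeR adjusted p = 4.78e-06) and the liver (-1.60, SE 0.24, adjusted p = 0.000108), and the brain level was 4.09-fold that of the tumor (adjusted p = 4.23e-06). Between tumor-mouse blood and sham blood the log2 fold change was -0.69 (SE 0.24, adjusted p = 0.130). That difference passed without tumor-mouse blood 2, the highest library of its group (adjusted p = 0.0175), and in DESeq2 (0.0426).

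Stxbp2 (Munc18-2), the partner of Stx11 and Stx3, varied least within groups. It was at 309, 310, 261 and 261 CPM in sham blood, 420, 399, 420 and 382 CPM in tumor-mouse blood, 487, 448, 509 and 459 CPM in the brain, 286, 345, 348 and 278 CPM in the liver, and 157, 211, 173 and 193 CPM in the tumor. The brain libraries were above all others and the tumor libraries below all others. Stxbp2 fell in the tumor compared to tumor-mouse blood (log2 fold change -1.14, SE 0.14, edgeR adjusted p = 2.45e-06) and the liver (-0.78, SE 0.14, adjusted p = 0.000573), and its brain level exceeded that of the tumor (1.38, SE 0.14, adjusted p = 4.64e-07) and the liver (0.60, SE 0.14, adjusted p = 0.0202). It rose 1.42-fold in tumor-mouse blood compared to sham blood (0.51, SE 0.14, adjusted p = 0.0439), while the brain and tumor-mouse blood differed by 0.23 (SE 0.14, adjusted p = 0.337). The call against the liver ended without brain 2 (adjusted p = 0.0621), brain 4 (0.0672), liver 1 (0.0765) or liver 4 (0.0869) and with lane as a term (0.0762), and the call between the blood groups ended when any of the 8 blood libraries, tumor 3 or tumor 5 was left out (up to 0.127) and with lane as a term (0.286).

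Stx11, a SNARE of leukocytes on the target membrane, showed the steepest fall of the abundant genes in the tumor. Its level was 545, 378, 548 and 307 CPM in sham blood, 472, 557, 381 and 293 CPM in tumor-mouse blood, 620, 439, 356 and 421 CPM in the brain, 449, 544, 497 and 375 CPM in the liver, and 52.1, 84.3, 59.5 and 133 CPM in the tumor. The group means outside the tumor lay between 426 and 466 CPM and their libraries overlapped. Stx11 was 5.18-fold lower in the tumor than in tumor-mouse blood (log2 fold change -2.37, SE 0.28, edgeR adjusted p = 2.00e-06), 5.67-fold lower than in the liver (adjusted p = 4.62e-06) and 5.58-fold lower than in the brain (adjusted p = 2.16e-06). No other comparison of Stx11 passed, with log2 fold changes between -0.06 and 0.13 and SE of 0.27.

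Snap23, the widely expressed SNARE that pairs with syntaxins, had the highest level per kb in every group. It was at 1466, 762, 904 and 793 CPM in sham blood, 782, 864, 789 and 780 CPM in tumor-mouse blood, 707, 549, 405 and 631 CPM in the brain, 629, 880, 812 and 673 CPM in the liver, and 250, 475, 298 and 478 CPM in the tumor. Tumor and brain libraries overlapped, and the tumor was below both blood groups and the liver. Snap23 fell in the tumor compared to tumor-mouse blood (log2 fold change -1.10, SE 0.23, edgeR adjusted p = 0.00126) and the liver (-0.99, SE 0.23, adjusted p = 0.00750), while brain and tumor differed by 0.61 (SE 0.23, adjusted p = 0.0819). With lane as a term neither call held (adjusted p = 0.0937 and 0.0533).

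Vamp8, the granule-side SNARE, differed least between groups among the 6 most abundant genes. It was at 216, 180, 174 and 173 CPM in sham blood, 293, 236, 309 and 295 CPM in tumor-mouse blood, 239, 176, 241 and 241 CPM in the brain, 169, 217, 254 and 198 CPM in the liver, and 151, 199, 151 and 190 CPM in the tumor. Tumor-mouse blood stood above sham blood and tumor in every library, and the tumor overlapped brain, liver and sham blood. Vamp8 rose in tumor-mouse blood compared to sham blood (log2 fold change 0.61, SE 0.16, edgeR adjusted p = 0.0406) and was lower in the tumor than in tumor-mouse blood (-0.71, SE 0.16, adjusted p = 0.00237). The first call ended when sham blood 2, 3 or 4, tumor-mouse blood 1, 3 or 4 or tumor 3 was left out (adjusted p up to 0.108) and with lane as a term (0.161), and the second with lane as a term (0.0570).

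Syt15, a synaptotagmin without the calcium-binding residues of its relatives, was counted only in the brain, at 0.224, 6.07, 3.51 and 2.20 CPM in brain 2 to 5 from 10, 314, 165 and 102 reads. The other 16 libraries held no read of it. Against the floor of 3 reads per group it was at least 194-fold higher in the brain than in tumor-mouse blood, at least 196-fold higher than in the liver and at least 279-fold higher than in the tumor (edgeR adjusted p = 0.0219, 0.0340 and 0.00662). Brain 3 carried much of this level, and without it the bounds were 125-, 126- and 179-fold. All 3 calls ended with lane as a term (adjusted p = 0.118, 0.220 and 0.0795) and with the replicate block (0.108, 0.168 and 0.0524). The call against tumor-mouse blood also ended without tumor-mouse blood 1 (adjusted p = 0.0505), brain 3 (0.0560) or brain 4 (0.0527), and that against the liver without brain 3, 4 or 5 or any liver library (0.0656 to 0.0817).

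Syt5, a calcium-sensing synaptotagmin of secretory vesicles, was near absent. It reached 2.90 CPM in brain 3 (150 reads), 1.04 CPM in tumor 1, 0.607 CPM in liver 3 and 0.478 CPM in tumor 3, and at most 0.162 CPM in the other 16 libraries. A few libraries thus carry its level in each group, and no comparison of Syt5 passed (edgeR adjusted p from 0.368 to 1).

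**Figure D2:**
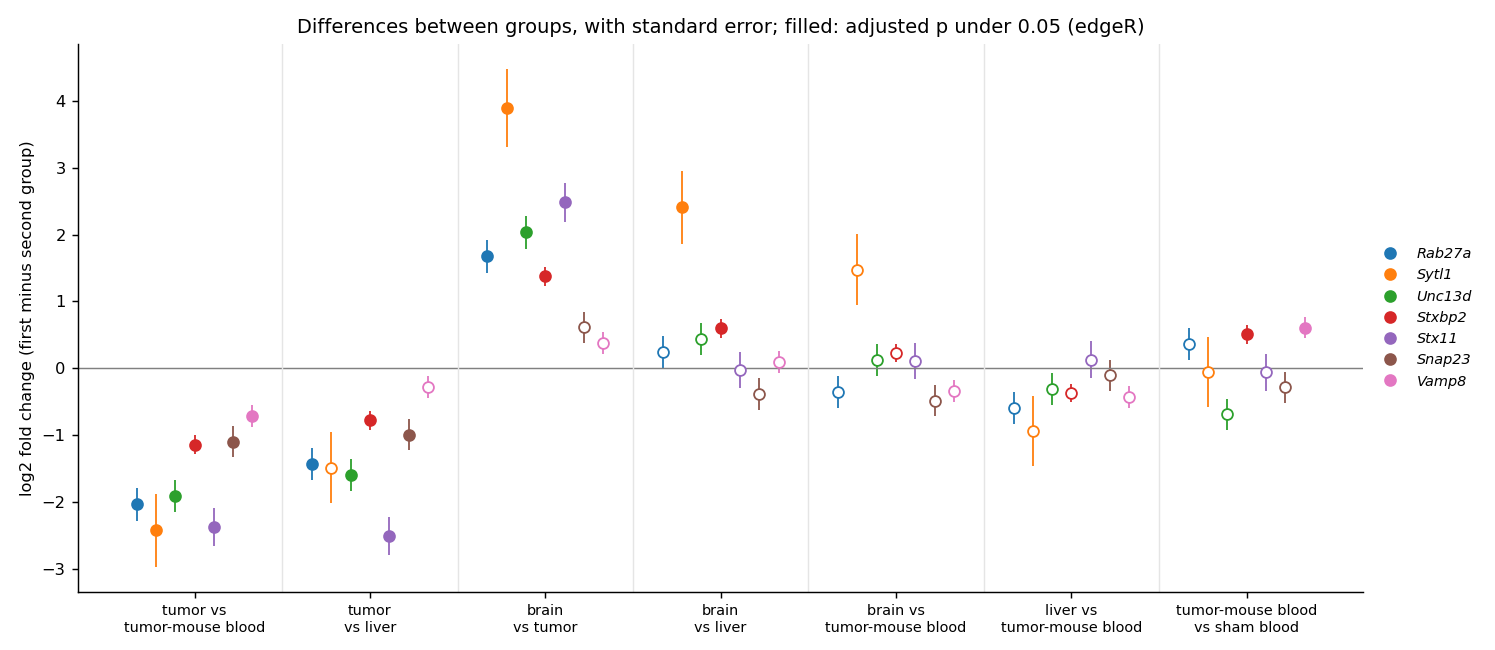
Log2 fold change (y axis) of Rab27a, Sytl1, Unc13d, Stxbp2, Stx11, Snap23 and Vamp8 in the 7 comparisons on the x axis, first group minus second; bars are standard errors, and filled points passed at an edgeR adjusted p under 0.05. All 7 genes lie below 0 and are filled in tumor against tumor-mouse blood, and none is filled in liver against tumor-mouse blood or in brain against tumor-mouse blood.

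Of the 10 genes, 7 fell and none rose in the tumor compared to tumor-mouse blood, where 10.3% of all tested genes fell and 13.3% rose. The 7 were Rab27a, Sytl1, Unc13d, Stxbp2, Stx11, Snap23 and Vamp8. Abundant genes pass more often, and among the 7202 genes that averaged 10 CPM or more, 34.3% fell. All 6 members of that abundance, which are the 7 without Sytl1, were among them. Their median log2 fold change was -1.53, and that of the genes of at least 10 CPM was -0.22. With the size factors of DESeq2 in place of TMM, the scaling between the groups shifted by 0.13 on the log2 scale in this comparison. The shift was 0.15 between tumor and liver and -0.12 between brain and tumor. No call of the 10 genes changed with it.

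In the tumor compared to the liver 5 of the 10 fell (background 6.40%, and 23.3% of genes of at least 10 CPM) and none rose (2.38%), with Rab27a, Unc13d, Stx11, Stxbp2 and Snap23 passing. Vamp8 (-0.28, SE 0.16, edgeR adjusted p = 0.316) and Sytl1 (-1.49, SE 0.53, adjusted p = 0.0922) did not pass, although Sytl1 passed in DESeq2 (adjusted p = 0.0179). In the brain compared to the tumor 7 of 10 were higher (8.54%, and 27.2% of genes of at least 10 CPM) and none lower (6.87%), namely Myrip, Rab27a, Sytl1, Unc13d, Stx11, Stxbp2 and Syt15. This count includes Myrip and Syt15, which the study had named as particular to the brain in these same samples, and their calls add nothing to it. These 3 comparisons share the tumor libraries and are no separate evidence of each other. As the 10 genes were chosen with earlier results known, their counts are not to be read as an excess over the shares.

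The study compared the brain with all other sites to find transcripts particular to brain-infiltrating neutrophils. Against tumor-mouse blood, 2 of the 10 genes were higher in the brain, Myrip and Syt15, and none was lower. The shares of all tested genes were 3.56% and 1.41%. Before adjustment 3 genes were higher, Sytl1 being added, and 1 gene, Snap23, was lower. The study had named Myrip and Syt15 from these same samples, and they held at most 1 read outside the brain. Counts that include them, here and against the liver, are therefore not to be read as an excess over the shares of all genes. Against the liver 4 were higher, Myrip, Syt15, Sytl1 and Stxbp2, and none lower (1.05% and 1.57%), also before adjustment. Of the genes of at least 10 CPM 2.68% were higher there. Among the 6 abundant members the median log2 fold change between brain and tumor-mouse blood was -0.11 and ranged from -0.49 for Snap23 to 0.23 for Stxbp2. Between the liver and tumor-mouse blood none passed in either direction at an adjusted p of 0.05 in edgeR (3.98% of all genes higher, 1.20% lower), although Rab27a, Stxbp2 and Vamp8 were lower in the liver at the same threshold before adjustment. DESeq2 called Stxbp2 and Vamp8 there, and limma on the rlog values Stxbp2. Tumor-mouse blood compared to sham blood addressed the effect of the tumor on circulating neutrophils, and 2 of the 10 rose, Stxbp2 and Vamp8, and none fell (1.63% and 1.69% of all genes, and 5.69% of genes of at least 10 CPM rose), 1 gene, Unc13d, being lower before adjustment. All shares of genes in this paragraph are at the adjusted threshold. No share before adjustment was computed, so the results before adjustment have no background to be read against.

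In the tumor the neutrophil markers were low together with these genes. From tumor-mouse blood to tumor, 18 of the 20 neutrophil markers fell and none rose, with a median log2 fold change of -2.78, a larger fall than the -1.53 of the 6 abundant members. Compared to the liver the medians in the tumor were -2.24 for the markers and -1.21 for the members, and between brain and tumor they were 2.65 and 1.52. Within the tumor group, Rab27a, Stx11 and Snap23 followed the order of the summed neutrophil markers, which was 7035 CPM in tumor 1, 10307 in tumor 3, 16690 in tumor 2 and 20703 in tumor 5. The other 4 of the 7 genes that fell, Sytl1, Unc13d, Stxbp2 and Vamp8, did not follow it. Sytl1 departed from it only by 0.998 CPM in tumor 3 beside 0.991 CPM in tumor 2. Unc13d, Stxbp2 and Vamp8 were higher in tumor 2 than in tumor 5. Macrophage and monocyte markers moved the other way, 11 of 15 being higher and 1 lower in the tumor than in tumor-mouse blood (median 3.03). Of 12 platelet markers 11 fell and 0 rose (median -6.02), and all 7 erythroid markers tested fell (median -10.2). The erythroid markers summed to 5260 to 66924 CPM in tumor-mouse blood and 2.59 to 60.5 CPM in the tumor.

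In the brain compared to tumor-mouse blood 4 of the 20 neutrophil markers were higher and 2 lower, with a median of 0.37 beside -0.11 for the 6 abundant members. Against the liver, where Sytl1 and Stxbp2 were higher in the brain, 7 markers were higher and none lower, with medians of 0.98 for the markers and 0.17 for the members. In tumor-mouse blood compared to sham blood, where Stxbp2 and Vamp8 rose, 9 of the 20 neutrophil markers rose and none fell (median 0.81). In the same comparison 6 of 10 B cell markers fell and none rose, their sum being 1074 to 2104 CPM in sham blood and 84.5 to 149 CPM in tumor-mouse blood, and 4 of the 15 macrophage and monocyte markers rose and 2 fell. The part of the marker levels in these results was not tested.

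The wider machinery was described from 7 lists with 114 further genes. Of these 28.9% fell and 15.8% rose in the tumor compared to tumor-mouse blood, beside 10.3% and 13.3% of all tested genes and 34.3% and 21.6% of genes of at least 10 CPM. In the tumor compared to tumor-mouse blood, 7 of 14 other Rab GTPases of secretory traffic fell and none rose, with Rab8b (log2 fold change -1.16, SE 0.22, edgeR adjusted p = 0.000325), Rab8a (-0.93, SE 0.15, adjusted p = 8.89e-05) and Rab32 (-0.53, SE 0.19, adjusted p = 0.0472) the most abundant. Of 16 effectors and regulators of Rab proteins 4 rose and 4 fell, among them Coro1a (652 ± 201 against 2612 ± 261 CPM, SD, n = 4, adjusted p = 2.03e-07), an actin-binding coronin of leukocytes, and Tbc1d10b (-1.45, SE 0.20, adjusted p = 1.2e-05), of a family of GTPase-activating proteins that act on Rab27a. Of 16 genes of granule and lysosome-related organelle biogenesis 8 fell and 1 rose, with Nbeal2, needed for granules of platelets, at -2.47 (SE 0.40, adjusted p = 6.93e-05) and Lyst, the gene of Chediak-Higashi syndrome, at -0.93 (SE 0.32, adjusted p = 0.0369). Of the 9 exocyst subunits, which tether vesicles, 4 fell and 1 rose, Exoc6 and Exoc1 falling by 0.88 and 0.91 on the log2 scale.

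Of 21 other SNAREs 3 rose and 4 fell in the tumor compared to tumor-mouse blood, of 22 SNARE regulators 4 rose and 3 fell, and of 16 further synaptotagmins and relatives 5 rose and 3 fell. The shares of the SNAREs and their regulators lay between those of all genes and those of genes of at least 10 CPM given above. Of the synaptotagmins 31.2% rose, above both of these shares, and 18.8% fell. Stx7, a SNARE of late endosomes, was higher in the tumor than in the brain (log2 fold change of brain minus tumor -0.54, SE 0.15, edgeR adjusted p = 0.0133), as was Nsf, the ATPase that takes SNARE complexes apart (161 ± 30.1 against 80.6 ± 19.8 CPM, SD, n = 4, adjusted p = 0.00142), the opposite direction to Stx11. Syt11 was lower in the tumor than in tumor-mouse blood (-1.83, SE 0.27, adjusted p = 2.74e-05), and Syt8, at 6.38 ± 2.45 CPM in the tumor and 0.815 ± 0.497 CPM in tumor-mouse blood, was higher (2.97, SE 0.83, adjusted p = 0.0106). In genes of at least 10 CPM the median log2 fold change was -1.15 for 3 synaptotagmins, -1.14 for 7 Rab effectors and regulators, -0.85 for the Rab GTPases, -0.69 for granule biogenesis, -0.44 for the exocyst, -0.12 for the SNARE regulators and 0.00 for the SNAREs, beside -1.53 for the exocytosis genes and -0.22 for all genes. These medians depend on the limit of 10 CPM. Without it the median was 1.21 for the 16 synaptotagmins and 0.70 for the 22 SNARE regulators, of the opposite sign. It was then -0.25 for the Rab effectors and regulators, -0.47 for the Rab GTPases and -0.73 for granule biogenesis. The exocyst was at -0.44 and the SNAREs were at 0.02.

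**Figure D3:**
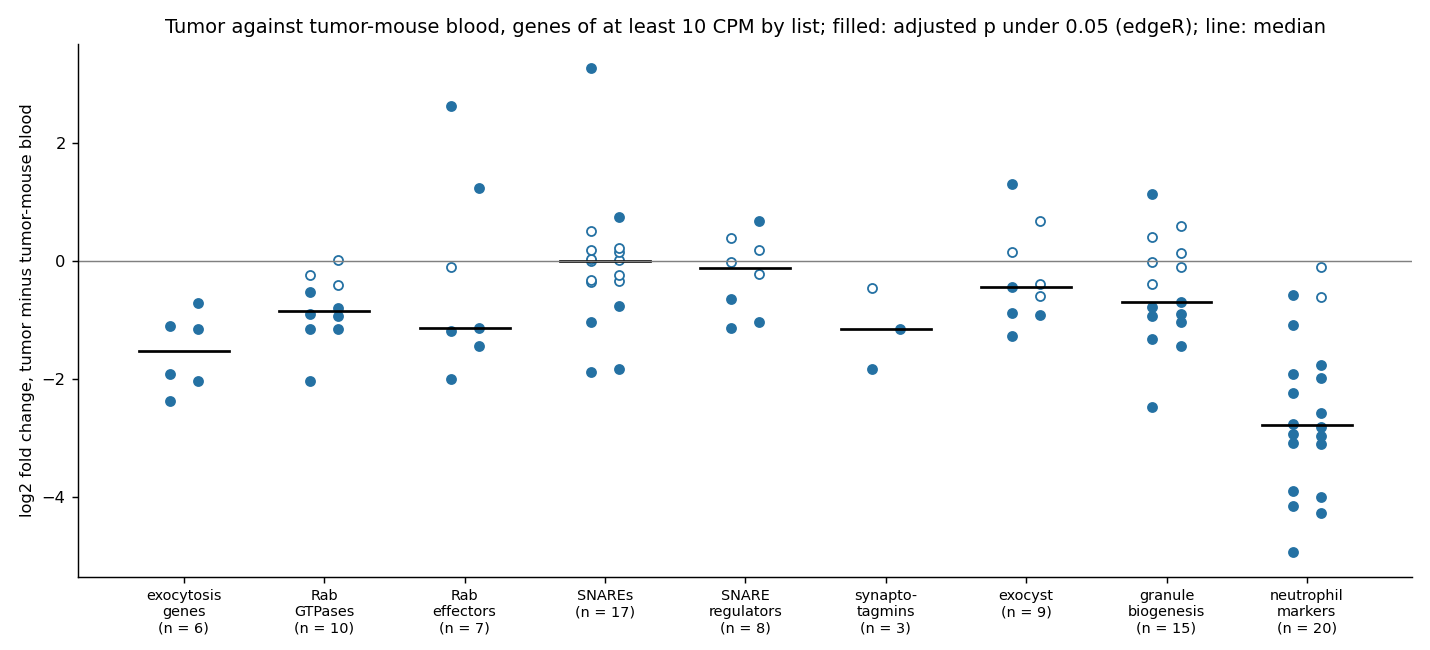
Log2 fold change in the tumor minus tumor-mouse blood (y axis) of genes that averaged 10 CPM or more, by gene list (x axis, n genes each); filled points passed at an edgeR adjusted p under 0.05 and black lines are medians. The 6 exocytosis genes all lie below 0 with a median of -1.53, between the SNAREs at 0.00 and the neutrophil markers at -2.78.

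In the brain compared to tumor-mouse blood 4 of the 114 genes were higher and 4 lower, 3.51% each, beside 3.56% and 1.41% of all genes and 5.78% and 4.48% of genes of at least 10 CPM, so that the counts say little about these lists. Rab8b fell (-0.78, SE 0.21, adjusted p = 0.0353), as did Syt11 (-1.27, SE 0.27, adjusted p = 0.00619), while Vamp2, a vesicle SNARE, was higher in the brain (187 ± 34.3 against 106 ± 6.95 CPM, adjusted p = 0.0351). None of the 114 passed with a log2 fold change of 2 or more, up or down, against all 3 other sites of the tumor mice.

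The levels of Myrip and Syt15 were set beside markers of brain cells in the 4 brain libraries. Of 15 markers of brain endothelium 11 were higher in the brain than in tumor-mouse blood. Their sum was 932, 704, 1409 and 753 CPM in brain 2 to 5, 319 to 390 CPM in tumor-mouse blood, 268 to 447 CPM in sham blood, 418 to 553 CPM in the liver and 1010 to 1104 CPM in the tumor. In tumor-mouse blood Slco1a4, Cdh5, Abcb1a, Itm2a and Emcn were at 0, in the liver Slco1a4 and Slco1c1, in the tumor Slco1c1 and in sham blood Slco1c1, Tek and Emcn, whereas none of the 15 was at 0 in the brain. Cldn5, a tight junction gene of vessels, was at 42.4, 12.1, 81.2 and 12.4 CPM in brain 2 to 5, and Myrip, too, was higher in brain 2 and 4 than in brain 3 and 5. Of 14 microglia markers 11 were higher in the brain than in tumor-mouse blood, with a sum of 1600, 3597, 1038 and 1136 CPM in brain 2 to 5 and 986 to 1608 CPM in the other 16 libraries. Sall1, a transcription factor of microglia that was at 0 in both blood groups and the tumor, was at 2.69, 22.7, 7.29 and 4.67 CPM in brain 2 to 5, which is the order of Syt15 in these libraries. Sall1 was named after its values were seen, and the sum of the 14 microglia markers did not follow this order. That sum was higher in brain 2 than in brain 4 and 5, whereas Syt15 was lowest in brain 2. The 11 choroid plexus markers summed to 39.4, 108, 2401 and 133 CPM in brain 2 to 5, and the 10 neuron markers to 1.1, 63.1, 9.8 and 3.5 CPM, brain 3 being the library with the highest value of Syt5. The part of these cell types in the levels of Myrip, Syt15 and Syt5 was not tested.

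**Figure D4:**
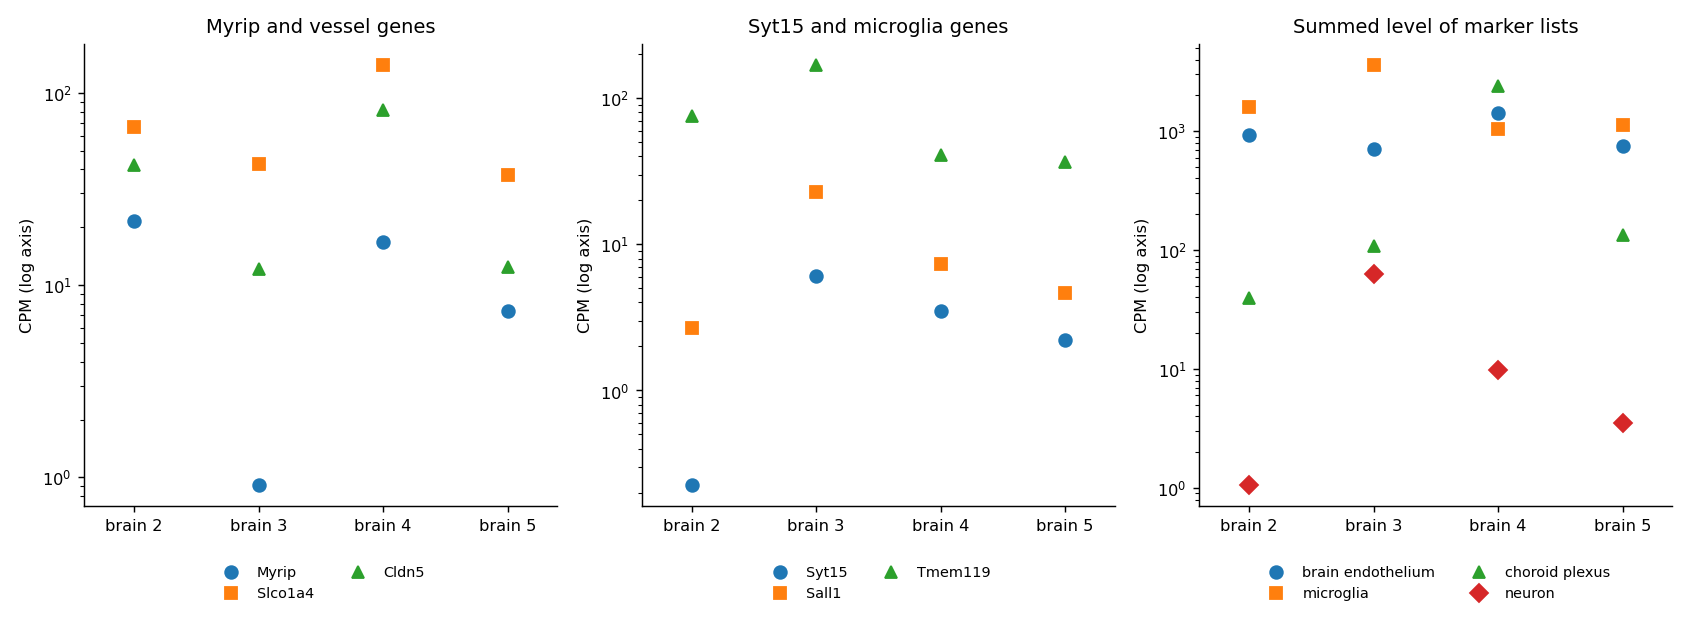
Levels in the 4 brain libraries (x axis) on log axes in CPM (y axis): Myrip with the vessel genes Slco1a4 and Cldn5 (left), Syt15 with the microglia genes Sall1 and Tmem119 (middle), and the summed level of 4 marker lists (right); each point is 1 library. Myrip is lowest in brain 3 (0.909 CPM), where Syt15 is highest (6.07 CPM).

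As a description of which genes resembled each member, the Pearson correlation of log2 CPM was taken over the 20 libraries for the 12275 genes that averaged 1 CPM or more. These libraries share the groups, so that genes of 1 tissue correlate, and no p is given. Myrip was most like Slco1a4 (r = 0.97), Ackr1 and Slco1c1, and Syt15 most like Sall1 (r = 0.97), Igf2 and Cytl1. Rab27a was most like Grina (r = 0.98) and Selplg, Unc13d most like Ptpre (r = 0.97), Myo1f and Orai2, and Stx11 most like Stk17b (r = 0.97), Bmx and Akna. Stxbp2 was most like Rogdi (r = 0.97), Mapk13 and Cyb5r4, Snap23 most like Otud5 (r = 0.96), Ube2b and Csf3r, Sytl1 most like Agpat2 (r = 0.93), Rps6ka1 and Hmgn2, and Vamp8 most like Ubl5 (r = 0.91), Scand1 and Max. Syt5 had no close neighbor (r = 0.77 for Prkar1b). Csf3r, the receptor for granulocyte colony-stimulating factor and 1 of the 20 neutrophil markers, was the only marker of that list among these genes.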

How the data were processed

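RNA of sorted neutrophils was amplified with SMART-Seq v4, which does not mark the strand, and sequenced as 100-cycle single reads with 4 libraries per lane, per the labels. The authors deposited raw counts of reads for each Ensembl gene, in whole numbers and with no normalization. They also deposited rlog values, a regularized log2 transformation from DESeq2, which served only as an alternative here. The submitters' processing notes name mm10 and DESeq2. For the aligner and the counting tool, nothing was given in the sources used here, and reads shared by similar genes may have been split. The table held 51918 entries, of which 6 repeated a gene with identical counts and were dropped.

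After TMM scaling, edgeR 4.0.16 (R 4.3.3) was used to fit 1 quasi-likelihood model to the 20 libraries (15 residual and 6.48 prior degrees of freedom) for the 28762 genes counted in 1 library or more. The p-values are two-sided and Benjamini-Hochberg adjusted over all these genes within each of 7 comparisons, and a gene passed below an adjusted p of 0.05 whatever its fold change. Percentages of genes that passed in the same comparison are given as background. Log2 fold changes are first group minus second, with SE from the test statistic. CPM values are TMM-scaled, and group spread is the SD of 4 libraries. At 47388245 to 54472378 counts per library, differences between groups of a few reads were not detectable. Where a group had no count, a bound was computed with a floor of 3 reads per group. It covers counting error only.

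Alternatives were size factors of DESeq2 in edgeR, the Wald test of DESeq2 1.42.0, the low-count filter of edgeR, a fit of the compared groups alone, replicate number as a block, lane as a term, limma 3.58.1 on rlog values, and each of the 20 libraries left out. Apart from that block, replicate numbers were not used for pairing. The block also joins sham and tumor mice of the same number, which are different animals.

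The 10 members, the 7 lists of related genes and the marker lists were chosen with earlier results of these data known. Besides the members, the text names the most abundant genes of each list, up to 3, that passed in any comparison, any list gene past a log2 fold change of 2 in all 3 brain comparisons, the 3 genes most correlated with each member (predicted genes left out, and 1 gene that is not reported here), and the leading or discussed markers. Cldn5, Sall1 and the markers at 0 were named after their values were seen. Promoters are from RefSeq (GRCm38.p6). No protein sequence was used here.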

Additional observations from a re-analysis of the deposited data

Results flagged for a closer look

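A library whose gap to the nearest of the other 3 of its group, divided by the range of the group, exceeded 0.829 was examined for each member and group. Of the 43 sets of 4 libraries with a count, 8 had such a library. A chance rate of about 1 in 20 holds for normally distributed values. It does not apply to sets near 0, such as Myrip in sham blood and Syt5 in brain and liver, where 1 library with reads is enough. The number of flags is therefore not compared with that rate. The level of Myrip in sham blood 3 was 0.0195 CPM, from 1 read, with 0 in the other sham libraries. Sytl1 was at 0.342 CPM in tumor 1, below 0.991 to 1.10 CPM in the other tumor libraries. Unc13d was at 35.7 CPM in tumor 2, above 24.9 to 26.7 CPM. Vamp8 was at 216 CPM in sham blood 1, above 173 to 180 CPM, and at 176 CPM in brain 3, below 239 to 241 CPM. Snap23 was at 864 CPM in tumor-mouse blood 2, above 780 to 789 CPM. Syt5 was at 2.90 CPM in brain 3, where the other brain libraries held at most 0.0224 CPM, and at 0.607 CPM in liver 3, where the others held at most 0.0191 CPM. Brain 3 also had the highest summed microglia (3597 CPM) and neuron (63.1 CPM) markers and the lowest neutrophil markers (80919.5 CPM) of the brain libraries, and the part of these in its Vamp8 and Syt5 levels was not tested.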

How the results depend on the processing

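No call of a member reversed under any alternative run. Over the 27 calls of members, leaving out 1 library kept 506 of 540 values past the threshold, and the other settings 168 of 186; for 45 calls of other named genes these counts were 799 of 900 and 274 of 315. The 7 members higher in brain against tumor, the 7 lower in tumor against tumor-mouse blood and the 5 lower in tumor against liver stayed within 1.5 times in every alternative. The others did not. The number higher in brain against tumor-mouse blood was 2, and 1 with the low-count filter (which removes Syt15), 1 with the replicate block and 0 with lane as a term, 3 in DESeq2 and with limma (Sytl1 added), and 1 to 2 when a library was left out. In brain against liver 4 were higher, 2 with the replicate block, 1 with lane as a term and 1 to 4 without a library. In tumor-mouse blood against sham blood 2 were higher, 1 when only the compared groups were fitted, 1 with the replicate block, 0 with lane as a term and 0 to 2 without a library, and none was lower, but 1 in DESeq2, 1 with the replicate block and 0 to 1 without a library, Unc13d in each case. In liver against tumor-mouse blood none was lower, but 2 in DESeq2 and 1 with limma. The cause was not tested. With only the compared groups, Stxbp2 lost its call against the liver (adjusted p = 0.0665) and between the blood groups (0.0597). Deviations from the group means in libraries of the same number correlated weakly (r from -0.11 to 0.16). In some pairs this r exceeded that with every other number, as for liver and tumor-mouse blood 4 (0.14 beside at most -0.002). In others it did not, as for tumor and liver 3 (-0.11 beside up to 0.20). These values cannot settle whether equal numbers mark 1 mouse, and the labels do not say. Outside the replicate block, numbers were therefore not read as pairs. With the replicate block, Sytl1 in brain against liver (0.0529), Vamp8 between the blood groups (0.0515) and Syt15 in all 3 brain comparisons lost their calls, and Snap23 passed in brain against tumor (0.0474).

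Levels under 1 CPM, as for Syt5, rest on few reads, and differences between such groups were not detectable at this depth. Each lane held 4 libraries of 3 or 4 groups, so lane and group are partly confounded. Neutrophil markers summed to less in each tumor library than in any other library.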
